A study of Mus musculus with 30 samples.

Results

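Aminoacyl-tRNA synthetases were taken as all gene symbols of the count table made of a capital letter followed by "ars" and an optional 1 or 2, together with Farsa, Farsb and Eprs. Of 16025 gene symbols in the table, 18 that met this rule are described here. Of these, 16 end in 2 and encode mitochondrial enzymes (Aars2, Cars2, Ears2, Fars2, Hars2, Iars2, Lars2, Mars2, Nars2, Pars2, Rars2, Sars2, Tars2, Vars2, Wars2 and Yars2). The other 2, Farsa and Farsb, encode the alpha and beta subunits of a single cytosolic enzyme, phenylalanyl-tRNA synthetase. Eprs and the remaining cytosolic synthetase genes were not analysed here, so every statement on the cytosolic side concerns these subunits and not cytosolic synthetases in general.

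The cells were myotubes differentiated from C2C12, a wild-type mouse myoblast line, so all groups come from 1 cell line. RNA was sequenced from 30 libraries in 10 groups of 3, which the series' design text calls biological replicates. In 4 groups a ginseng preparation was given for 12 h before D-galactose was added at 20 mg/mL for a further 24 h: RGW plus D-galactose, SFr plus D-galactose, NSFr plus D-galactose and Rb2 plus D-galactose. RGW is a water extract of Korean Red Ginseng (100 µg/mL), SFr its saponin fraction (100 µg/mL), NSFr its non-saponin fraction (100 µg/mL) and Rb2 a single ginsenoside (20 µM). A further group received D-galactose alone (20 mg/mL, 24 h), and RGW, SFr, NSFr and Rb2 were each given alone for 12 h. The last group received vehicle. The labels do not say how long the vehicle cells were cultured, nor whether the cells given a preparation alone were collected at 12 h, so duration cannot be told apart from treatment where the times differ.

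An aminoacyl-tRNA synthetase joins an amino acid to its tRNA, and each enzyme is named for its amino acid: Mars2 for methionine, Nars2 for asparagine, Pars2 for proline, Tars2 for threonine. Mammalian cells carry a cytosolic and a mitochondrial set, mostly from separate nuclear genes. The mitochondrial set serves the translation of the few respiratory chain proteins encoded by mitochondrial DNA, on which muscle depends heavily. There is no separate mitochondrial glutaminyl enzyme: Ears2 loads glutamate on the glutamine tRNA, and an amidotransferase that includes Gatb converts it. Several cytosolic synthetase genes are known targets of ATF4, the transcription factor made when the kinases of eIF2alpha sense amino acid shortage or other stress.

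Promoters are shown for Mars2 and Nars2, whose lower levels with the saponin fraction alone held in every alternative analysis, and for the 2 cytosolic subunit genes as the contrast. Each sequence is the RefSeq window of GRCm38.p6 from 250 bases before to 50 bases after the gene start, 300 bases in all, read 5′ to 3′ on the gene's strand. Capitals mark a match to the GABP motif CCGGAAG, on either strand (CTTCCGG on the reverse), or to the E-box CACGTG. Mars2 lies on the plus strand (chr1:55236927-55237226), Nars2 on the plus strand (chr7:96951277-96951576), Farsa on the plus strand (chr8:84856736-84857035) and Farsb on the minus strand (chr1:78488848-78489147).
Mars2: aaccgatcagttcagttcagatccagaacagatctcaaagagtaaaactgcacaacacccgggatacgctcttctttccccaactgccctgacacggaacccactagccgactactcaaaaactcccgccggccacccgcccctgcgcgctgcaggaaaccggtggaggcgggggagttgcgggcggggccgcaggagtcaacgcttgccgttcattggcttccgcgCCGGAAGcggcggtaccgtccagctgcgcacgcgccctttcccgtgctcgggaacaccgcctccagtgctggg
Nars2: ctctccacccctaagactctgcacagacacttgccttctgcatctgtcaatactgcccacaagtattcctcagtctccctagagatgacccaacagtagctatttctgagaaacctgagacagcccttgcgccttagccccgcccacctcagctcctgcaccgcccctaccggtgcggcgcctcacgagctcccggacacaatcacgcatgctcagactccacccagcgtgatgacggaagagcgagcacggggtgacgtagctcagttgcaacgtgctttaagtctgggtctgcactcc
Farsa: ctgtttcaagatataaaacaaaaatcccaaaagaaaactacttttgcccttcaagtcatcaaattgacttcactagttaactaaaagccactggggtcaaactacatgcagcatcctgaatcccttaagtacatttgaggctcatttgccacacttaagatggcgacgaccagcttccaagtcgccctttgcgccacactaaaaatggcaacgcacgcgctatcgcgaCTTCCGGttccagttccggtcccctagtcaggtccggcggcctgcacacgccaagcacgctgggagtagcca
Farsb: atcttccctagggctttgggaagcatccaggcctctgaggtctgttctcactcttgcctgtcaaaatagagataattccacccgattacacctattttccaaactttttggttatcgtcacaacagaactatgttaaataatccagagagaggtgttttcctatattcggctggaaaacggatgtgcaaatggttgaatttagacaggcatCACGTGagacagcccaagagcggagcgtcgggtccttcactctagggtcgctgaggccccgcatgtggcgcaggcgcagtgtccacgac

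The Mars2 promoter held the GABP motif on its own strand with its first base at -23 from the gene start, and the Farsa promoter held it on the reverse strand at -22. Farsb held the E-box at -39, and the Nars2 window held none of the motifs searched. RefSeq promoters matched 16 of the 18 members. The RefSeq start was not always that of the gene coordinates given below. It lay 5228 bases from it for Tars2, 230 for Fars2 and 176 for Ears2. The GABP motif stood in 5 of these 16 (Cars2, Farsa, Mars2, Rars2 and Sars2), against 14.5% of 12588 promoters of all genes. The E-box stood in 2 of 16 (Ears2 and Farsb), against 9.12% of all promoters. The letters TGATGNAA, which C/EBP-ATF factors such as ATF4 bind, were in 0 of the 16 windows and in 2.52% of all promoters. CRE (TGACGTCA, 2.77% of all promoters), SRE (TCACNCCAC, 1.17%) and ERR (TCAAGGTCA, 0.278%) letters were likewise in 0 of 16. All motifs were searched on both strands. A match describes letters in this window and no binding.

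All 18 members were transcribed in every library and passed the filter on low counts, with mean counts per library between 111.1 (Sars2) and 2461 (Iars2). Levels between genes are given as CPM (counts scaled to a common library size) per kilobase of annotated exon, averaged over the 30 libraries. On this measure the cytosolic subunits stood highest, Farsb at 26.8 and Farsa at 17.5, a ratio of 1.53. Their ranges over libraries, 24.4 to 28.7 for Farsb and 16.1 to 19 for Farsa, did not overlap with each other or with any mitochondrial member. The order rests on the annotated exon lengths, 2.62 kb for Farsb and 4.538 kb for Farsa. In CPM without the length it was Iars2 (93.9), Farsa (79.3), Lars2 (73.2) and Farsb (70.2).

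Among the mitochondrial members the isoleucine enzyme Iars2 was highest at 10.6 CPM per kilobase, followed by Rars2 (arginine) at 7.28 and Lars2 (leucine) at 6.6. Hars2 (histidine) and Nars2 (asparagine) both averaged 5.68, Yars2 (tyrosine) 5.26, Tars2 (threonine) 4.99 and Aars2 (alanine) 4.68 CPM per kilobase. The library ranges of these neighbours overlapped, and their order is not resolved beyond the spread. Vars2 (valine) was at 3.67, Fars2 (phenylalanine) at 2.47, Pars2 (proline) at 2.14, Ears2 (glutamate) at 1.87 and Mars2 (methionine) at 1.72 CPM per kilobase. Cars2 (cysteine) at 1.44, Sars2 (serine) at 1.28 and Wars2 (tryptophan) at 1.02 were the lowest. The mitochondrial members thus spanned a 10.4-fold range of levels around a median of 4.17 CPM per kilobase. The exon length is the union of all annotated transcripts, so the level of a gene with a long, little used exon is understated.

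**Figure D1:**
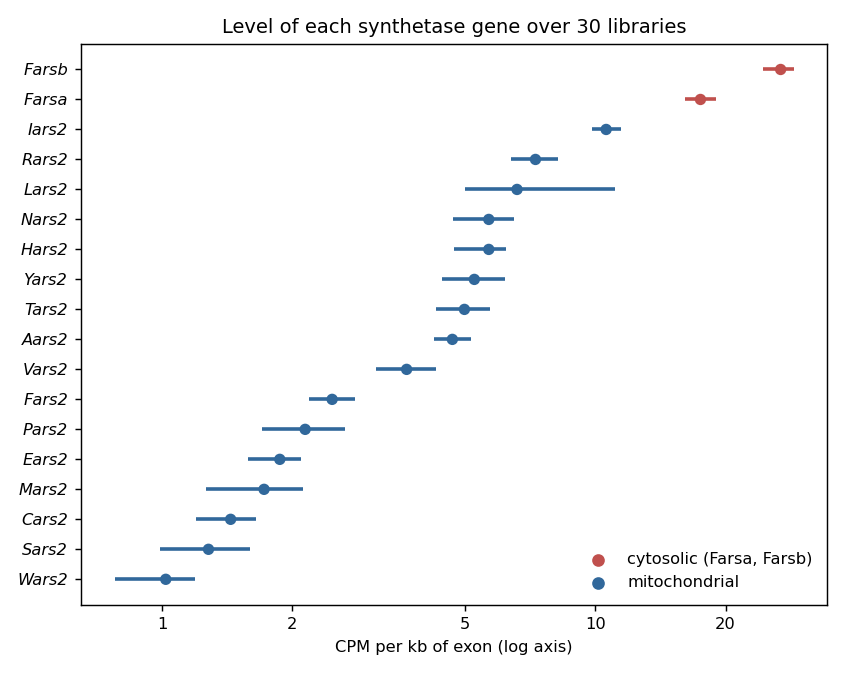
Level of each of the 18 synthetase genes in CPM per kilobase of exon on a log axis, with the point at the mean of 30 libraries and the line from the lowest to the highest library. Farsb (26.8) and Farsa (17.5) lie above all mitochondrial genes, and Lars2 has the longest line, from 5 to 11.1.

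Across the 10 groups the members varied little. The ratio of the highest to the lowest group mean had a median of 1.18 over the members and was above 1.5 for 2 of them, Mars2 (1.54) and Lars2 (1.53). Pars2 followed with 1.4, Wars2 with 1.34 and Nars2 with 1.28, while Farsa and Aars2 had the smallest ratio, 1.09. The lowest group mean was in SFr for 5 members (Lars2, Mars2, Nars2, Pars2 and Rars2) and in SFr plus D-galactose for 6 (Ears2, Farsa, Farsb, Sars2, Vars2 and Wars2). The highest was in D-galactose alone for 5 (Ears2, Farsb, Pars2, Rars2 and Tars2). Replicates spread by a median coefficient of variation of 4.9%, from 2.25% for Farsb to 11.1% for Lars2. Differences were tested with edgeR's quasi-likelihood F-test over 12184 genes, and called means a Benjamini-Hochberg adjusted p below 0.05. Errors of log2 fold changes are standard errors.

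The libraries held 22209314 to 30218435 counts, so that a count of 3 equals 0.0993 to 0.135 CPM. Summed over 6 markers the myotube genes reached 13400 to 18200 CPM, against 0 to 0.245 CPM for 3 fat cell markers, 0.132 to 0.855 for 3 bone and cartilage markers, 0.141 to 0.868 for 3 endothelial markers and 0.493 to 5.97 for 2 macrophage markers. Markers of undifferentiated myoblasts (Pax7, Myf5 and Cdh15) summed to 283 to 480 CPM and markers of dividing cells (Mki67, Top2a and Ccnb1) to 23.9 to 137 CPM. None of the myotube, myoblast or dividing markers was at 0 in all libraries of a group, and these 3 lists and the macrophage marker Cd68, a lysosomal protein, moved with treatment, as given below. The 1 endothelial marker past the filter on low counts was called lower with SFr than with vehicle (log2 fold change -2.06) or NSFr (-2.28). The 1 bone and cartilage marker past it was called lower with SFr plus D-galactose than with D-galactose alone (-1.24) or NSFr plus D-galactose (-1.47). Ptprc, which marks all white blood cells, was at 0 in all libraries of 6 groups. On the first principal component of all genes tested, which took 36.4% of the variance, the libraries with SFr or SFr plus D-galactose stood apart at 28.97 to 34.4, against -13.5 to -2.34 for all others. In bulk RNA, fewer cells of a type cannot be told apart from less RNA per cell.

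D-galactose alone raised 3 of 18 members and lowered none relative to vehicle. All 3 were mitochondrial: Pars2, Mars2 and Tars2. Leaving out vehicle library 3 gave 5 called members, adding Nars2 as higher and Fars2 as lower, and without D-galactose library 1 Iars2 was called lower. Nars2 was also called higher without vehicle library 1 and without D-galactose library 2. The members' share called was 16.7%, all of it higher. In this comparison 25.1% of the genes tested were called, 11.9% as higher and 13.1% as lower. The median log2 fold change was 0.04 for the members and -0.004 over all genes. The cytosolic subunits were not called.

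Pars2, which charges proline tRNA (chr4:106651069-106655282, plus strand), had 7.82, 7.45 and 8.17 CPM with D-galactose and 6.06, 5.90 and 6.23 CPM with vehicle. All D-galactose libraries were above all vehicle libraries, and the log2 fold change was 0.37 ± 0.09 (adjusted p = 0.00225). Mars2, the methionyl enzyme whose product also starts mitochondrial proteins (chr1:55237177-55248470, plus strand), had 23.7, 21.4 and 21.0 CPM with D-galactose and 18.6, 19.4 and 17.4 CPM with vehicle. The groups again did not overlap, with a log2 fold change of 0.26 ± 0.07 (adjusted p = 0.0054). Tars2, the threonyl enzyme (chr3:95739976-95760206, minus strand), had 38.1, 37.0 and 38.03 CPM with D-galactose and 33.3, 29.6 and 33.0 CPM with vehicle. The second vehicle library was the lowest, all D-galactose libraries lay above, and the log2 fold change was 0.24 ± 0.06 (adjusted p = 0.00189).

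Farsa had 81.3, 80.7 and 81.8 CPM with D-galactose and 81.8, 79.9 and 85.2 CPM with vehicle, a log2 fold change of -0.02 with a 95% interval from -0.11 to 0.08. Farsb had 74.3, 75.2 and 72.8 CPM with D-galactose and 73.5, 72.0 and 72.8 CPM with vehicle, a log2 fold change of 0.03 with an interval from -0.06 to 0.11. The groups overlapped for both subunits. The share of counts from genes encoded by mitochondrial DNA was 1.32% to 1.68% with D-galactose and 0.727% to 1.14% with vehicle, and dividing markers summed to 48.7 to 54.6 CPM with D-galactose and 114 to 121 CPM with vehicle. The 2 macrophage markers summed to 1.63 to 2.15 CPM with D-galactose and 0.515 to 1.02 CPM with vehicle, and of 6 myotube markers 1 was called higher and 1 lower. Of 3 myoblast markers 1 was called higher and 0 lower. Their sums were 429 to 452 CPM with D-galactose and 405 to 435 CPM with vehicle. The part of these markers and of the mitochondrial DNA share in the result was not tested.

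**Figure D2:**
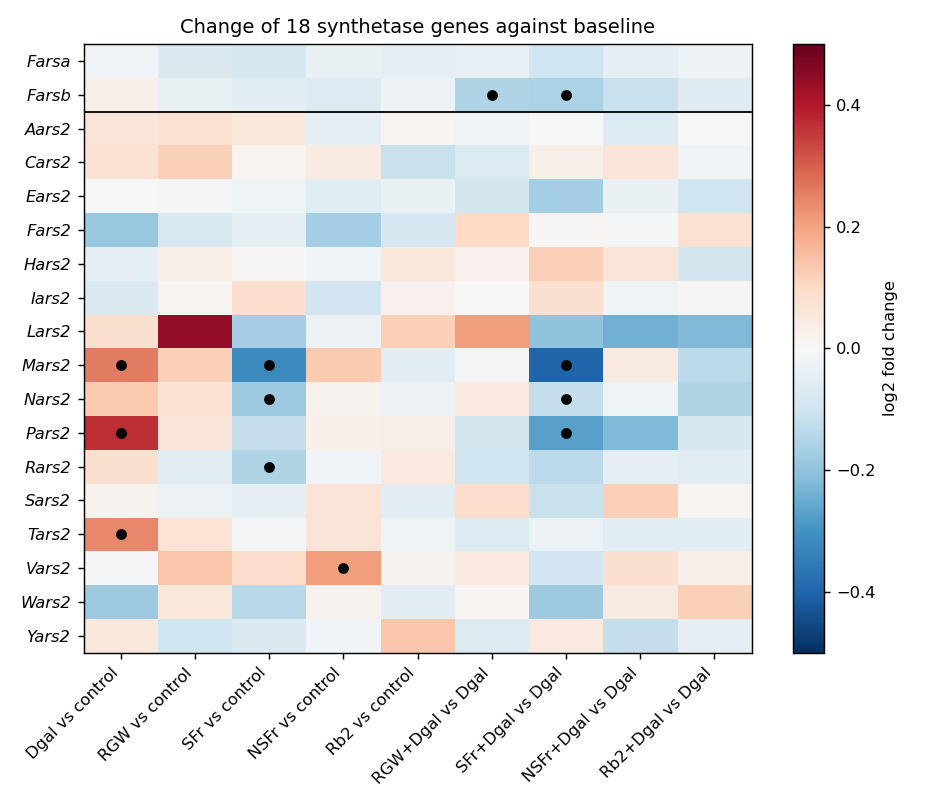
Log2 fold change (colour) of the 18 genes in 9 comparisons, with the cytosolic Farsa and Farsb above the line and a black dot where the adjusted p was under 0.05. Mars2 is red with D-galactose (0.26) and blue in both comparisons of the saponin fraction (-0.32 and -0.40); the darkest red, Lars2 with RGW (0.44), has no dot.

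The saponin fraction alone lowered 3 of 18 members relative to vehicle and raised none. The 3 were mitochondrial: Mars2, Nars2 and Rars2. Over all genes 43.1% were called in this comparison, 21.8% as lower and 21.3% as higher, and the members' share was 16.7%, all lower. The median log2 fold change was -0.05 for the members and 0.00 over all genes.

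Mars2 had 14.2, 15.4 and 14.6 CPM with SFr and 18.6, 19.4 and 17.4 CPM with vehicle. No SFr library reached the lowest vehicle library, and the log2 fold change was -0.32 ± 0.07 (adjusted p = 0.000295). Nars2, the asparaginyl enzyme (chr7:96951505-97064758, plus strand), had 34.8, 35.0 and 32.8 CPM with SFr and 40.0, 36.1 and 40.2 CPM with vehicle. The SFr libraries were all below the vehicle libraries, by a log2 fold change of -0.18 ± 0.05 (adjusted p = 0.0034). Rars2, the arginyl enzyme (chr4:34614957-34660167, plus strand), had 17.7, 18.3 and 18.9 CPM with SFr and 19.6, 19.8 and 21.6 CPM with vehicle. Its log2 fold change of -0.15 ± 0.06 (adjusted p = 0.0495) lost its call in 10 of 11 alternatives, including DESeq2 and each omission of a library from either group (adjusted p 0.0459 to 0.223).

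Farsa and Farsb were not called with SFr. Farsa had 73.0, 78.4 and 80.9 CPM with SFr and 81.8, 79.9 and 85.2 CPM with vehicle, overlapping groups with a log2 fold change of -0.09 ± 0.05 (adjusted p = 0.121). For Farsb the log2 fold change was -0.06 ± 0.04 (adjusted p = 0.274). Of 6 myotube markers, 5 were called lower with SFr and none higher (median log2 fold change -0.48), and their sum was 13400 to 14100 CPM with SFr and 16900 to 17400 CPM with vehicle. Cd68 rose by 2.20 on the log2 scale with SFr, and the macrophage sum was 3.33 to 3.61 CPM with SFr and 0.515 to 1.02 CPM with vehicle. Myoblast markers summed to 302 to 316 CPM with SFr and 405 to 435 CPM with vehicle, and dividing markers to 43.3 to 52.4 CPM with SFr and 114 to 121 CPM with vehicle. Their part in the fall of Mars2 and Nars2 was not tested.

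Given before D-galactose, the saponin fraction lowered 4 of 18 members relative to D-galactose alone and raised none: Mars2, Pars2, Farsb and Nars2. Leaving out 1 library gave counts that ranged from 2 (without D-galactose library 3 or SFr plus D-galactose library 1) to 6 (without SFr plus D-galactose library 3). Without D-galactose library 1 Hars2 and Iars2 were called higher, and without SFr plus D-galactose library 3 Iars2 was called higher and Rars2 lower. Over all genes 41.3% were called, 21% as lower, and the members' share of 22.2% lower was close to that background. The median log2 fold change was -0.11 for the members and -0.01 over all genes.

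Mars2 had 16.9, 18.2 and 15.2 CPM with SFr plus D-galactose and 23.7, 21.4 and 21.0 CPM with D-galactose alone. The groups stood well apart, with a log2 fold change of -0.40 ± 0.07 (adjusted p = 1.09e-05). Pars2 had 6.01, 6.70 and 6.81 CPM with SFr plus D-galactose and 7.82, 7.45 and 8.17 CPM with D-galactose alone. The groups did not overlap, and the log2 fold change was -0.27 ± 0.09 (adjusted p = 0.0123); the call was lost without D-galactose library 3 or without SFr plus D-galactose library 1 (adjusted p over the alternatives 0.0122 to 0.0827). Farsb (chr1:78417975-78488897, minus strand) had 66.1, 66.0 and 67.2 CPM with SFr plus D-galactose and 74.3, 75.2 and 72.8 CPM with D-galactose alone. This was a small but even difference, below in every library, with a log2 fold change of -0.16 ± 0.04 (adjusted p = 0.00249).

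Farsa (chr8:84856989-84869257, plus strand), which encodes the partner subunit of Farsb, had 74.1, 77.4 and 75.9 CPM with SFr plus D-galactose and 81.3, 80.7 and 81.8 CPM with D-galactose alone. Its groups did not overlap either, but the log2 fold change of -0.10 ± 0.05 was not called (adjusted p = 0.0769). Nars2 had 37.1, 39.2 and 40.7 CPM with SFr plus D-galactose and 43.0, 40.3 and 43.7 CPM with D-galactose alone. The groups overlapped, and the log2 fold change of -0.12 ± 0.05 (adjusted p = 0.0498) lost its call in 8 of 11 alternatives, among them DESeq2 and leaving out D-galactose library 1 or 3 or SFr plus D-galactose library 1 or 2 (adjusted p 0.0247 to 0.254). Of 6 myotube markers, 4 were called lower with SFr plus D-galactose and none higher (median log2 fold change -0.34), with sums of 14900 to 15500 CPM with SFr plus D-galactose and 16500 to 16900 CPM with D-galactose alone. Cd68 rose by 1.60 on the log2 scale, and the macrophage sum was 5.59 to 5.97 CPM with SFr plus D-galactose and 1.63 to 2.15 CPM with D-galactose alone. Myoblast markers summed to 283 to 296 CPM with SFr plus D-galactose and 429 to 452 CPM with D-galactose alone, and dividing markers to 23.9 to 26.4 CPM with SFr plus D-galactose and 48.7 to 54.6 CPM with D-galactose alone. Their part in these results was not tested.

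**Figure D3:**
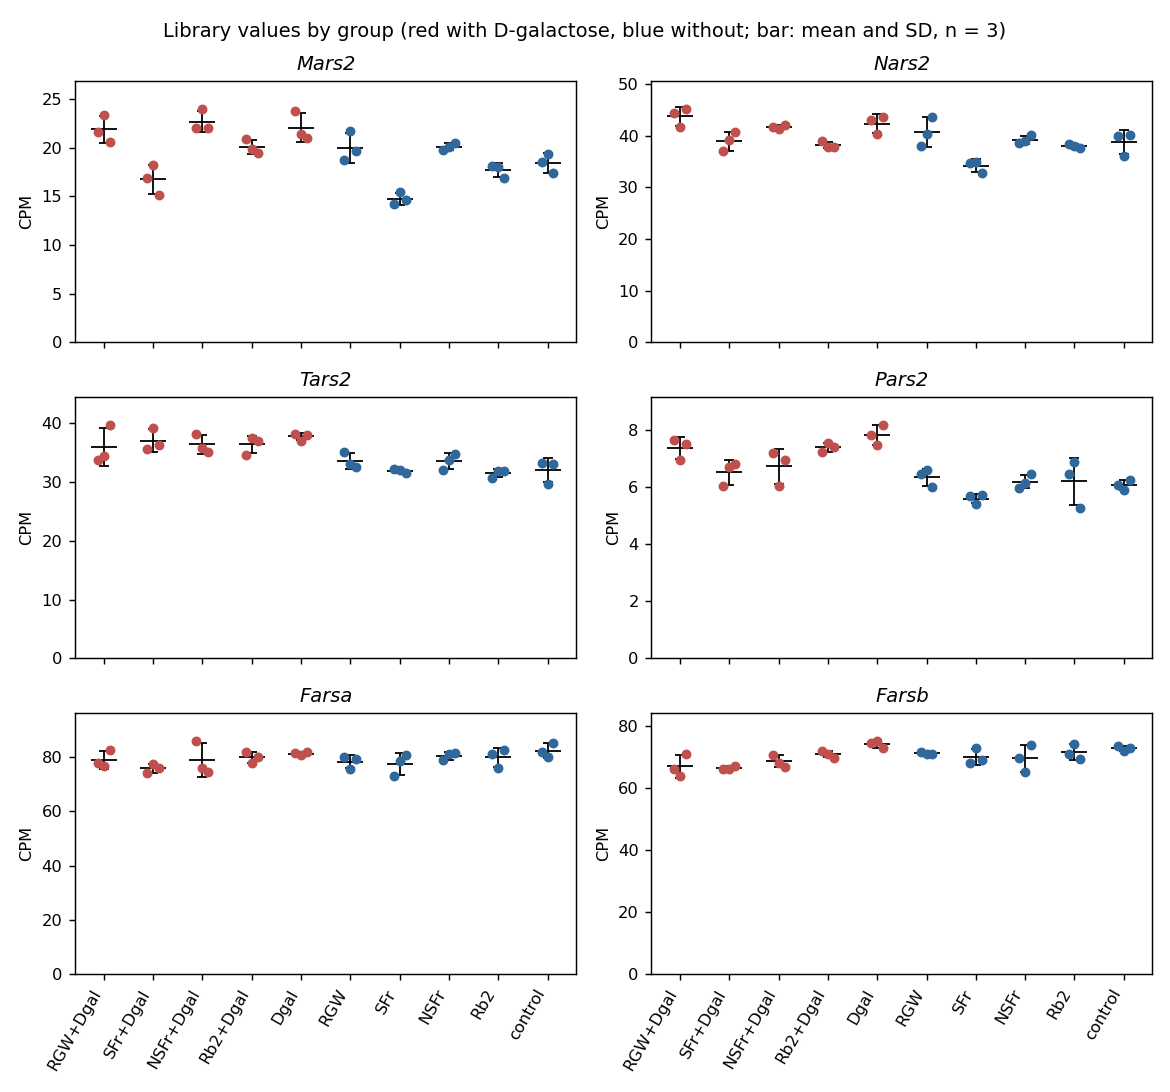
CPM of 6 members in each of 30 libraries, with red points for groups given D-galactose, blue points for groups without it, and bars for the mean and SD (n = 3). Mars2 is lowest in SFr (14.2 to 15.4 CPM) and, among groups with D-galactose, in SFr plus D-galactose. Farsa and Farsb vary less between groups. Farsb is highest on average in D-galactose alone (74.1 CPM) and lowest in SFr plus D-galactose (66.4 CPM), a difference that was called.

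Set against the non-saponin fraction at the same dose and time, the saponin fraction had the lower Mars2. The libraries with SFr and SFr plus D-galactose are those already set against vehicle and D-galactose alone, so the comparisons are not independent. With SFr alone against NSFr alone, 3 of 18 members were called, Mars2 and Nars2 lower and Iars2 higher, while 40.4% of all genes were called. Mars2 had 14.2, 15.4 and 14.6 CPM with SFr and 19.8, 20.1 and 20.5 CPM with NSFr, a log2 fold change of -0.45 ± 0.07 (adjusted p = 1.95e-06). This was the largest change among all 25 member calls, and the groups were far from overlapping. Iars2, the isoleucyl enzyme and the most abundant mitochondrial member (chr1:185284726-185329396, minus strand), had 102.0, 100.8 and 100.8 CPM with SFr and 89.8, 91.6 and 87.3 CPM with NSFr. All SFr libraries were higher, by a log2 fold change of 0.18 ± 0.04 (adjusted p = 0.00011). Nars2 had 34.8, 35.0 and 32.8 CPM with SFr and 38.6, 38.9 and 40.1 CPM with NSFr, a log2 fold change of -0.20 ± 0.05 (adjusted p = 0.00163).

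With D-galactose following, SFr against NSFr gave 4 called members, Mars2 and Vars2 lower and Iars2 and Yars2 higher, beside 41% of all genes. Mars2 had 16.9, 18.2 and 15.2 CPM with SFr plus D-galactose and 22.0, 24.0 and 22.0 CPM with NSFr plus D-galactose, a log2 fold change of -0.44 ± 0.07 (adjusted p = 1.16e-06). Vars2, the valyl enzyme, had 18.8, 18.3 and 17.0 CPM with SFr plus D-galactose and 20.7, 20.2 and 20.2 CPM with NSFr plus D-galactose. The groups did not overlap; the log2 fold change was -0.17 ± 0.06 (adjusted p = 0.0128), and the call was lost without SFr plus D-galactose library 3, which lifted the adjusted p to 0.101 (range over alternatives 0.0109 to 0.101). Iars2 differed by 0.10 ± 0.04 (adjusted p = 0.0218, lost in 4 of 11 alternatives) and Yars2 by 0.17 ± 0.07 (adjusted p = 0.0453, lost in 7 of 11). Over the alternatives the adjusted p ran from 0.00936 to 0.0886 for Iars2 and from 0.0235 to 0.34 for Yars2. Iars2 was lost without SFr plus D-galactose library 1 or NSFr plus D-galactose library 1 or 2, and Yars2 without SFr plus D-galactose library 3 or NSFr plus D-galactose library 1 or 2. All values of Iars2 in the table were fractional, which shows reads shared with other sequences, and its gene body overlaps Rab3gap2 on the opposite strand.

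Markers differed between the fractions too. With SFr against NSFr, all 6 myotube markers were called lower (median log2 fold change -0.32), with sums of 13400 to 14100 CPM with SFr and 16900 to 17500 CPM with NSFr. All 3 dividing markers were lower as well (median -1.44; sums 43.3 to 52.4 CPM with SFr and 111 to 137 CPM with NSFr), as were 2 of 3 myoblast markers, and Cd68 was higher by 2.19 on the log2 scale. With D-galactose following, 4 of 6 myotube markers (median -0.25), all 3 dividing markers (median -1.61) and 2 of 3 myoblast markers were lower with SFr, and Cd68 was higher by 1.72. The part of these cell markers in the differences of Mars2, Nars2, Vars2, Iars2 and Yars2 was not tested.

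The other preparations moved few members. NSFr alone raised Vars2 (chr17:35655634-35667592, minus strand) relative to vehicle, and this was the single call among 18, with 8.08% of all genes called and 4.56% called higher. Vars2 had 20.6, 22.9 and 23.4 CPM with NSFr and 19.8, 18.8 and 19.4 CPM with vehicle. The groups did not overlap, and the log2 fold change was 0.21 ± 0.06 (adjusted p = 0.0198); the call was lost in a fit of these groups alone and without vehicle library 2, NSFr library 2 or NSFr library 3 (adjusted p over the alternatives 0.00734 to 0.0965). RGW alone called 0 of 18 members by edgeR and 0 by DESeq2, with 2 at an unadjusted p under 0.05 and 3.21% of all genes called. Rb2 alone also called 0 by both tools, with 0 at an unadjusted p under 0.05 and 1.53% of all genes called.

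RGW before D-galactose lowered Farsb relative to D-galactose alone, the single call among 18 beside 5.06% of all genes, 2.54% called lower. Farsb had 66.1, 63.9 and 71.1 CPM with RGW plus D-galactose and 74.3, 75.2 and 72.8 CPM with D-galactose alone. The groups did not overlap, although the third library with RGW came close, and the log2 fold change was -0.15 ± 0.04 (adjusted p = 0.0343). The call was lost in 7 of 11 alternatives, among them leaving out any D-galactose library or RGW plus D-galactose library 1 or 2 (adjusted p 0.013 to 0.239). NSFr before D-galactose called 0 members by edgeR and 0 by DESeq2, with 2 at an unadjusted p under 0.05 and 6.33% of all genes called. Rb2 before D-galactose called 0 by both tools, with 1 at an unadjusted p under 0.05 and 2.26% of all genes called. In these comparisons, which share the D-galactose libraries with the saponin comparison, the log2 fold change of Farsb was -0.11 ± 0.04 with NSFr (adjusted p = 0.103) and -0.07 ± 0.04 with Rb2 (adjusted p = 0.601).

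Lars2, the leucyl enzyme (chr9:123366927-123462666, plus strand), showed the widest spread between replicates of any member. It had 88.9, 77.2 and 123.1 CPM with RGW and 70.4, 74.5 and 68.0 CPM with vehicle. The RGW libraries were all higher, but they differed among themselves, and the log2 fold change of 0.44 ± 0.18 was not called (adjusted p = 0.212). With D-galactose alone Lars2 had 98.5, 68.4 and 58.6 CPM, a range that enclosed all 3 vehicle libraries. The standard error of Lars2, 0.18 to 0.19 in the pairwise comparisons, set it apart from a median member at 0.07 or less.

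The D-galactose effect was also measured within each preparation. Pars2, Mars2 and Tars2 had a positive log2 fold change in all 5 backgrounds, and in 4 of the 5 the 95% interval lay above 0 for each of them. The 5 include the comparison without a preparation, in which these members were called higher. Its positive signs and intervals above 0 were thus fixed by that choice. Intervals reached below 0 for Pars2 after NSFr and for Mars2 and Tars2 after RGW. Nars2 was positive in all 5 too, with 2 intervals above 0. Other members went the other way: Fars2 (-0.19 to -0.014) and Wars2 (-0.23 to -0.013) were negative in all 5 backgrounds. Iars2 (-0.09 to 0) was positive in none. To 2 decimals, intervals lay below 0 for Fars2 without a preparation, Wars2 after RGW and SFr, and Iars2 after RGW and Rb2. They also lay below 0 for Vars2 after SFr and NSFr and for Hars2 after Rb2. Vars2 (-0.19 to 0.003) was positive in 1 background and Hars2 (-0.2 to 0.07) in 2. No member was called in every background.

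In cells given SFr, D-galactose called 3 of 18 members, with 19% of all genes called: Tars2 and Nars2 rose and Vars2 fell relative to SFr alone. Tars2 had 35.6, 39.2 and 36.2 CPM with SFr plus D-galactose and 32.1, 32.0 and 31.5 CPM with SFr, a log2 fold change of 0.21 ± 0.06 (adjusted p = 0.00483). Nars2 had 37.1, 39.2 and 40.7 CPM with SFr plus D-galactose and 34.8, 35.0 and 32.8 CPM with SFr, a log2 fold change of 0.19 ± 0.05 (adjusted p = 0.00601). Neither gene's groups overlapped. Vars2 had 18.8, 18.3 and 17.0 CPM with SFr plus D-galactose and 20.2, 20.8 and 20.7 CPM with SFr, a log2 fold change of -0.19 ± 0.06 (adjusted p = 0.0151). This call was lost in a fit of these groups alone and without SFr library 2 or 3 or SFr plus D-galactose library 3 (adjusted p over the alternatives 0.0158 to 0.112). Other members gained a call as higher when 1 SFr plus D-galactose library was left out. These were Pars2 without library 1, Yars2 without library 2 and Mars2 without library 3. Of 6 myotube markers 4 were called higher and 1 lower, and 1 of 3 myoblast markers was lower. All 3 dividing markers were lower (median log2 fold change -0.91), and Cd68 was higher by 0.74. The part of these markers in the member calls was not tested.

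In cells given Rb2, D-galactose called 3 of 18 members, with 21% of all genes called: Pars2 and Tars2 rose and Hars2 fell relative to Rb2 alone. Tars2 had 34.7, 37.5 and 37.0 CPM with Rb2 plus D-galactose and 30.7, 31.9 and 31.9 CPM with Rb2, a log2 fold change of 0.21 ± 0.06 (adjusted p = 0.00689). Pars2 had 7.21, 7.53 and 7.40 CPM with Rb2 plus D-galactose and 6.44, 6.86 and 5.27 CPM with Rb2. The groups did not overlap, but the Rb2 libraries were spread out; the log2 fold change was 0.25 ± 0.09 (adjusted p = 0.034) and the call was lost in 6 of 11 alternatives, among them DESeq2 and leaving out Rb2 library 3 or Rb2 plus D-galactose library 2 or 3 (adjusted p 0.0145 to 0.315). Hars2, the histidyl enzyme, had 22.6, 20.2 and 23.5 CPM with Rb2 plus D-galactose and 25.1, 25.4 and 25.4 CPM with Rb2. Its log2 fold change of -0.20 ± 0.07 (adjusted p = 0.0366) lost its call in 5 of 11 alternatives, those without any 1 Rb2 library or without Rb2 plus D-galactose library 1 or 2 (adjusted p 0.0134 to 0.245), and 96.7% of the Hars2 values in the table were fractional. In a fit of the Rb2 and Rb2 plus D-galactose groups alone, Mars2 was also called higher. Of 6 myotube markers 1 was called higher and 1 lower, and 1 of 3 myoblast markers was higher. All 3 dividing markers were lower (median log2 fold change -0.74), and Cd68 was higher by 1.13. Their part in these calls was not tested.

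After RGW, D-galactose called 0 of 18 members by edgeR and 0 by DESeq2, with 5 at an unadjusted p under 0.05 and 15.2% of all genes called. After NSFr it called 0 by both tools, with 3 at an unadjusted p under 0.05 and 12.7% of all genes called; without NSFr library 1 the edgeR count was 1, and without RGW library 3 the count after RGW was 1. Direct tests of whether a preparation altered the D-galactose effect called 0 members for each of the 4 preparations, by edgeR and by DESeq2. The share of all genes called was 0% for RGW, 0.583% for SFr, 0.041% for NSFr and 0% for Rb2, and 0, 1, 0 and 0 members passed an unadjusted p under 0.05 for RGW, SFr, NSFr and Rb2. That 1 member was Vars2, whose D-galactose effect was -0.19 after SFr and -0.01 without a preparation, a difference of -0.18 ± 0.08 (95% interval -0.35 to -0.02, adjusted p = 0.325). Without a preparation Vars2 had 18.7, 18.5 and 20.5 CPM with D-galactose and 19.8, 18.8 and 19.4 CPM with vehicle, groups that overlapped. Next for SFr came Farsb, with a difference of -0.10 ± 0.06 (adjusted p = 0.47) and 66.1, 66.0 and 67.2 CPM with SFr plus D-galactose and 68.1, 73.0 and 68.9 CPM with SFr.

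Pars2 had the smallest p of the members for NSFr. Its D-galactose effect was 0.12 after NSFr and 0.37 without a preparation, a difference of -0.25 ± 0.12 with an interval from -0.50 to 0.00 (adjusted p = 0.713). Pars2 had 7.18, 6.03 and 6.93 CPM with NSFr plus D-galactose and 5.97, 6.12 and 6.44 CPM with NSFr, with overlapping groups. Vars2 came next for NSFr, with a difference of -0.13 ± 0.08 (adjusted p = 0.788) and 20.7, 20.2 and 20.2 CPM with NSFr plus D-galactose and 20.6, 22.9 and 23.4 CPM with NSFr. For RGW the smallest p belonged to Farsb, with a difference of -0.11 ± 0.06 (adjusted p = 0.548), and to Tars2, with -0.14 ± 0.08 (adjusted p = 0.585). Tars2 had 33.8, 34.5 and 39.7 CPM with RGW plus D-galactose and 35.1, 33.1 and 32.5 CPM with RGW, with overlapping groups. Farsb had 66.1, 63.9 and 71.1 CPM with RGW plus D-galactose and 71.5, 71.1 and 70.8 CPM with RGW. For Rb2 it belonged to Yars2, with a difference of -0.18 ± 0.10, and to Nars2, with -0.12 ± 0.07, both at an adjusted p of 0.96. Yars2, the tyrosyl enzyme, had 17.6, 16.7 and 15.7 CPM with Rb2 plus D-galactose and 18.04, 17.8 and 18.6 CPM with Rb2. Nars2 had 38.9, 37.8 and 37.9 CPM with Rb2 plus D-galactose and 38.4, 38.1 and 37.6 CPM with Rb2, with overlapping groups. These intervals reach differences as large as the D-galactose effects themselves, so that a smaller effect after a preparation was neither shown nor bounded tightly.

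**Figure D4:**
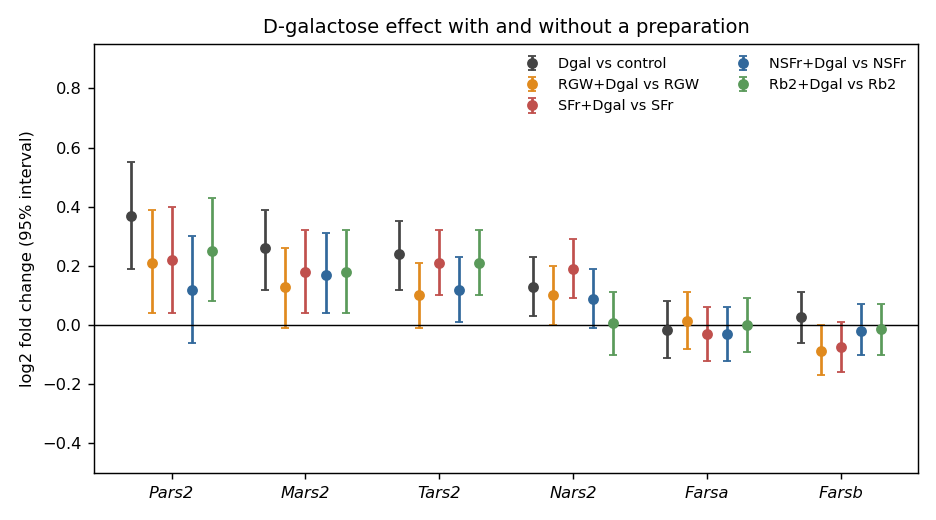
Log2 fold change of D-galactose against its own baseline, with 95% intervals, for 4 mitochondrial genes and both cytosolic subunits, without a preparation and after each of 4 preparations. Pars2, Mars2, Tars2 and Nars2 lie above 0 in every background, and Farsa stays between -0.03 and 0.01.

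The cytosolic enzyme and the mitochondrial set were compared through the log2 ratio of the summed CPM of Farsa and Farsb to the summed CPM of the 16 mitochondrial members in each library, a ratio that library scaling cannot change. It averaged -1.45 ± 0.10 with D-galactose and -1.40 ± 0.03 with vehicle (SD, n = 3 each), a difference within the spread of the D-galactose libraries. It was -1.43 ± 0.04 with SFr, -1.44 ± 0.05 with NSFr, -1.46 ± 0.04 with Rb2 and -1.57 ± 0.07 with RGW (SD, n = 3 each). With D-galactose following, it was -1.51 ± 0.05 for SFr, -1.47 ± 0.08 for NSFr, -1.42 ± 0.04 for Rb2 and -1.57 ± 0.02 for RGW (SD, n = 3 each). Both RGW groups stood lowest. Lars2 averaged 96.4 CPM with RGW and 71 CPM with vehicle, where the mitochondrial sums averaged 444 and 410 CPM. Its part in the ratio was not tested. Iars2 and Lars2, at 93.9 and 73.2 CPM over all libraries, are the largest terms of the mitochondrial sum, so the ratio weighs them most. The means of all 10 groups lay between -1.57 and -1.40.

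Of 25 member calls over the 19 comparisons, 14 held in every alternative run, and the calls fell on 10 members. The 8 members never called were Aars2, Cars2, Ears2, Fars2, Farsa, Lars2, Sars2 and Wars2. As a description over 10 group means of log2 CPM, Nars2 (r = 0.84) and Mars2 (r = 0.79) were most like the mean of the other mitochondrial members, and Iars2 was least like it (r = -0.67). Mars2 and Nars2 had r = 0.88 with each other and Farsa and Farsb r = 0.73. These groups share the cell line and some share a treatment, so the points are not independent.

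Genes that work beside the synthetases were read from lists of related functions. Of 38 genes of the amino acid response, the pathway that runs through ATF4, D-galactose alone raised 1 and lowered 16 relative to vehicle, a share called of 44.7% against 25.1% of all genes. The lowest were Aldh1l2, a mitochondrial folate enzyme (log2 fold change -0.79 ± 0.09, adjusted p = 3.95e-07), Pck2, the mitochondrial PEP carboxykinase (-0.72 ± 0.08, adjusted p = 7.82e-08), and Asns, which makes asparagine (-0.51 ± 0.06, adjusted p = 5.78e-08). NSFr alone lowered 28 of the 38 and raised none, against 8.08% called over all genes. Trib3, an ATF4 target and inhibitor of AKT, was at -0.78 ± 0.14 on the log2 scale with NSFr (adjusted p = 0.00111) and Chac1, a glutathione-degrading enzyme, at -0.59 ± 0.10 (adjusted p = 0.000706). Atf4 itself had -0.29 ± 0.05 with NSFr (adjusted p = 0.00016).

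RGW alone lowered 17 of the 38 (44.7%) and raised none, beside 3.21% of all genes called and 1.17% called lower. SFr alone lowered 20 and raised 3, a share of 60.5% beside 43.1% of all genes. Rb2 alone lowered none and raised 1, a share of 2.63% beside 1.53% of all genes. With SFr, Fgf21, a secreted stress hormone, was at -1.31 ± 0.10 on the log2 scale (adjusted p = 3.02e-11), while Atf3, a stress transcription factor, had 0.94 ± 0.09 (adjusted p = 1.5e-10). The cytosolic synthetases best known as ATF4 targets were not analysed here.

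**Figure D5:**
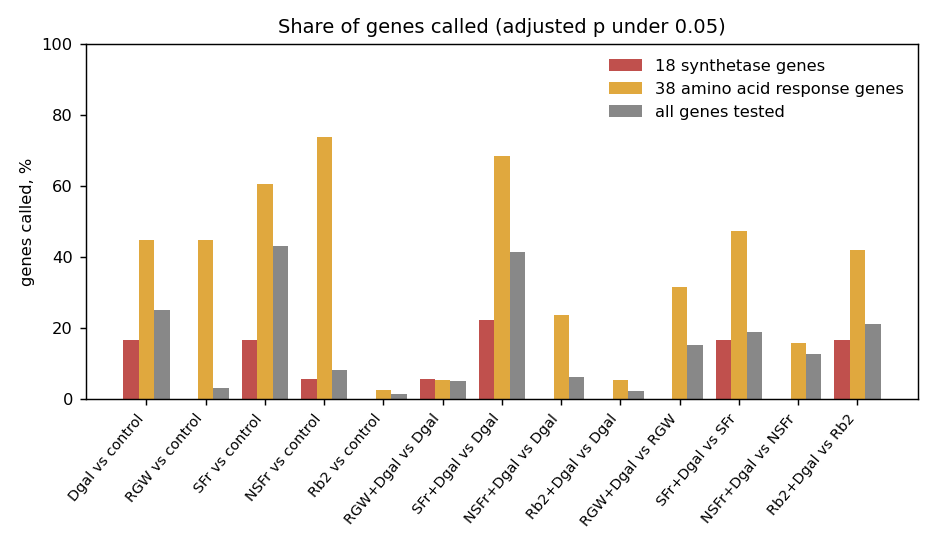
Percentage of the 18 synthetase genes, of 38 amino acid response genes and of all genes tested that were called in each of 13 comparisons. With NSFr the amino acid response genes reach 73.7%, while the synthetases stand at 5.56% and all genes at 8.08%.

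Of 9 tested partners of the synthetases, SFr alone called 6, 4 of them lower, a share of 66.7% beside 43.1% of all genes. Aimp2, a scaffold of the multi-synthetase complex, was at -0.38 ± 0.06 on the log2 scale (adjusted p = 8.83e-06), and Dtd1 and Aarsd1, which clear wrongly charged tRNAs, had 0.33 ± 0.10 (adjusted p = 0.00622) and 0.25 ± 0.07 (adjusted p = 0.0028). D-galactose alone called 2 of the 9, a share of 22.2% near the 25.1% of all genes: Trnt1, which adds the CCA end to tRNAs, was at 0.16 ± 0.05 (adjusted p = 0.0163) and Xpot, the nuclear exporter of tRNAs, at -0.10 ± 0.03 (adjusted p = 0.0369). Xpot was also the single partner called with NSFr, at -0.18 ± 0.03 (adjusted p = 0.00124), a share of 11.1% beside 8.08% of all genes.

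Of 18 further mitochondrial translation and tRNA modification genes, D-galactose alone raised 1, the initiation factor Mtif3 (0.17 ± 0.06, adjusted p = 0.0275), and lowered none, a share of 5.56% beside 25.1% of all genes. SFr alone lowered 2, Gatb of the glutamine amidotransferase (-0.23 ± 0.06, adjusted p = 0.00194) and the initiation factor Mtif2 (-0.17 ± 0.05, adjusted p = 0.00479), and raised Gtpbp3, a tRNA-modifying enzyme (0.20 ± 0.08, adjusted p = 0.0451); these 3 were 16.7% of the list beside 43.1% of all genes. With SFr plus D-galactose against D-galactose alone, 3 were lower, among them Mtif2 at -0.27 ± 0.05 (adjusted p = 4.13e-05), and 1 was higher, Tsfm, a mitochondrial elongation factor (0.30 ± 0.09, adjusted p = 0.00971), together 22.2% beside 41.3% of all genes. Of 8 cytosolic elongation factor genes, which bring charged tRNAs to the ribosome or assist there, D-galactose alone lowered 5 and raised none, a share of 62.5% beside 13.1% of all genes called lower, led by Eef1a1 (-0.23 ± 0.04, adjusted p = 1.04e-05), Eef1d (-0.20 ± 0.05, adjusted p = 0.00115) and Eef1g (-0.19 ± 0.05, adjusted p = 0.00228). Of 6 genes of the eIF2alpha kinases and their regulators, D-galactose called 0 by edgeR, with 2 at an unadjusted p under 0.05, and SFr alone called 3, a share of 50% near the 43.1% of all genes, of which Impact, an inhibitor of the kinase GCN2, was at 0.56 ± 0.05 (adjusted p = 5.29e-12).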

How the data were processed

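Poly(A) RNA of C2C12 myotubes was made into directional libraries (MGIEasy kit) and read from both ends by DNBSEQ, per the labels' protocols. STAR 2.7.9a, RSEM 1.3.3, Trim Galore 0.6.10 and FastQC 0.11.9 were used, with GRCm38 and mm10 as builds, per the submitters' processing notes; which annotation and strand setting went into counting is not given in the sources used here. Deposited by the authors were RSEM expected counts per gene symbol, not normalized, which divide reads matching several genes. Gene bodies overlap a neighbour on the opposite strand for Farsb, Ears2, Iars2 and Fars2, whose values are uncertain if strand was ignored.

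Expected counts were rounded to whole numbers. Of 16025 symbols, 16022 matched GENCODE vM21 (GRCm38), which gave coordinates and exon lengths. TMM factors ranged from 0.972 to 1.04. edgeR 4.0.16 in R 4.3.3 (quasi-likelihood F-test, robust fit) was run in 1 model of 10 group means over all 30 libraries after filterByExpr, which kept 12184 genes, with adjusted p over all of them; the biological coefficient of variation was 4.25%. Standard errors were worked back from F (size of the log2 change over the root of F). CPM are scaled by TMM. Replicate pairs differed by more than sampling noise (chi-square per degree of freedom 2.48 to 13.7 over 30 pairs), so none was merged. Precision is limited by counting error and by 3 libraries per group: the 95% interval lay within 1.5-fold of no change for at least 17 of 18 members in each comparison. Alternatives were RLE scaling, no filter, DESeq2 1.42.0, a replicate block, fitting the compared groups alone, and leaving out each library. The code was tested on simulated data.

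A symbol that met the rule stayed in the fit over all genes and is not reported here. Members and lists were chosen with earlier results of these data known. Values in every library are given, by rule, for up to 3 called mitochondrial and 4 cytosolic members of largest change in the main comparisons and up to 2 in the others, and for the 2 members of smallest p in each test of altered D-galactose effect; from the related lists up to 3 called genes per comparison are named by log2 fold change alone. Farsa, Lars2 and others beyond that rule were chosen after their values were seen. The rule's likeness to the cytosolic pattern could not be used with 2 cytosolic members, and likeness to the mitochondrial mean is given in its place.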

Additional observations from a re-analysis of the deposited data

How the results depend on the processing

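Of 233 counts of called members recomputed under the alternatives, 210 stayed within 1.5 times the main count, 18 were lower and 5 higher. The 210 include comparisons with 0 called members in the main run and again 0 in the alternative. A move from 3 to 2 members also counted as unchanged, so this tally overstates how steady the calls were. Of 356 recomputed log2 fold changes, 318 kept direction and side of the threshold, 38 lost the call and 0 reversed. In a fit of only the groups compared, the count was 0 in place of 1 for NSFr against vehicle, 0 in place of 1 for RGW plus D-galactose against D-galactose, 1 in place of 0 for NSFr plus D-galactose against NSFr, and 2 in place of 4 for SFr plus D-galactose against NSFr plus D-galactose. Without the filter on low counts it was 0 in place of 1 for RGW plus D-galactose against D-galactose. Leaving out each library gave 3 to 5 for D-galactose against vehicle, 0 to 1 for NSFr against vehicle, 0 to 1 for RGW plus D-galactose against D-galactose, 2 to 6 for SFr plus D-galactose against D-galactose, 0 to 1 for RGW plus D-galactose against RGW, 0 to 1 for NSFr plus D-galactose against NSFr, 1 to 2 for Rb2 plus D-galactose against Rb2, and 2 to 4 for SFr plus D-galactose against NSFr plus D-galactose. The replicate block gave 1 called member (Mars2, higher) in place of 0 for NSFr plus D-galactose against NSFr, and also called Mars2 higher for SFr plus D-galactose against SFr and Rb2 plus D-galactose against Rb2 (4 members in place of 3 in each). Mars2 also gained these calls without the block. It did so after NSFr and after Rb2 in a fit of the compared groups alone. After SFr it did so without SFr plus D-galactose library 3. The replicate numbers do not pair the samples: deviations of same-numbered libraries correlated at a median of 0.00369 (-0.193 to 0.157 over 135 pairs), and 10 of 30 libraries correlated best with their own number. Where an alternative changed a count, the cause was not tested.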
